A study of Mus musculus with 12 samples.

Results

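Monomethylation and trimethylation of lysine 4 of histone H3 (H3K4me1 and H3K4me3) were compared over the same stretches of the fetal liver genome, using every library titled with either mark: 5 of the 12 samples of the series. There were 3 H3K4me1 and 2 H3K4me3 ChIP-seq libraries, all from fetal liver of C57BL/6 mice at embryonic day 14.5, with no treatment or engineered allele named in the labels. The other libraries used here were 2 of H3K4me2 and 2 of H3K27ac from the same tissue, strain and day, and 2 ATAC-seq libraries of open chromatin from proerythroblasts, an early red cell precursor, of the same strain and day. The labels name 1 H3K4me1 antibody throughout and give differing catalogue numbers for the H3K4me3 antibody and differing suppliers for the H3K4me2 antibody. The protocol text of the ATAC samples describes ChIP. Each H3K4me1 and H3K4me3 library carries its own date-like tag in its title, so tag and library cannot be told apart. No tag of H3K4me1 occurs on H3K4me3, so the mark and the tags also cannot be told apart, whereas the H3K4me3 tags recur on both H3K4me2 libraries and on 1 of H3K27ac. Whether the libraries came from separate embryos or litters is not stated, so SDs and p-values here measure only the spread between these libraries, which may be technical.

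Lysine 4 of histone H3 gains its methyl groups 1 at a time from the COMPASS and MLL family of methyltransferases. The trimethylated form gathers at the promoters of genes that are active or poised, where CpG islands recruit SET1 and MLL complexes. The monomethylated form is the usual companion of enhancers, where MLL3 and MLL4 deposit it, and it also borders promoters, since a given H3 tail carries either form on that lysine and not both. The fetal liver at this stage consists largely of red cell precursors, with hepatoblasts and other blood lineages beside them. In a mixed tissue, 2 marks at 1 position can lie on different cells or on different copies of a histone, and few cells with a mark and a weak mark in many cells cannot be told apart.

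The measurements are positions of peaks, the stretches that the authors called as enriched in 1 library, on the mouse build mm9. The H3K4me3 lists held 14027 and 16886 peaks on chromosomes 1 to 19, X and Y (replicates 1 and 2), and the H3K4me1 lists held 52387, 42323 and 44542 peaks (replicates 1, 2 and 3). H3K4me1 peaks covered 130.6 Mb, 91.5 Mb and 105.8 Mb in that order, so replicate 2 had the smallest cover in total. An H3K4me3 peak is called a region below, and its H3K4me1 cover is the percentage of its bases that lie under an H3K4me1 peak of 1 library. Each H3K4me1 library was read at the regions of both H3K4me3 libraries, which gives 6 pairs of lists. The value of a library is its mean over both H3K4me3 lists, and errors are the SD over the 3 H3K4me1 libraries. Such errors leave out the spread between the H3K4me3 lists. Sequencing depth is unknown, and the tissue label could not be set against marker genes, since no gene annotation of this build was used here.

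H3K4me3 formed fewer stretches than H3K4me1, and at the median they were wider. The median peak width was 1602 bp and 1679 bp in the H3K4me3 libraries and 1395 bp, 1278 bp and 1385 bp in the H3K4me1 libraries, so the groups did not overlap. The difference in median width was −287.8 bp (two-sided exact permutation p = 0.2, the smallest that 3 libraries against 2 can give). H3K4me1 nevertheless had the longer tail, with 15.1% ± 1.83 (SD, n = 3) of its peaks over 4 kb against 7.31% ± 1.91 (SD, n = 2) for H3K4me3 (exact permutation p = 0.2). Among peaks with a −log10 q of at least 5, the order of the medians turned over, and those of H3K4me1 were 1482 bp wider.

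H3K4me3 regions fell into 4 width bins of under 1, 1 to 2, 2 to 4 and over 4 kb. Replicate 1 had 3987, 4969, 4236 and 835 regions in them, and replicate 2 had 4901, 5176, 5347 and 1462. H3K4me1 was thinned in the middle of regions over 2 kb and slightly denser there in regions under 1 kb. Regions under 1 kb could hardly hold a bare middle, as described below. For each region the centre was the middle 10% of its width and the edge was the first and last 5%.

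In regions under 1 kb, H3K4me1 cover was slightly higher at the centre than at the edge. Centre cover was 81.3%, 54.0% and 68.4% in H3K4me1 replicates 1, 2 and 3, and edge cover was 75.1%, 50.8% and 62.3%. The centre was higher in 3 of 3 libraries, by 5.18 ± 1.69 percentage points (SD, n = 3). The shortest gap between H3K4me1 peaks was 913 bp, 973 bp and 901 bp in replicates 1, 2 and 3. A trough between covered edges could therefore hardly appear under 1 kb, and the positive difference does not show that it was absent. In regions of 1 to 2 kb the libraries split, with differences of 2.95, −6.34 and 2.42 points and a mean of −0.32 ± 5.22. Without replicate 2 the mean for this bin was 2.69 points, and with only the regions of H3K4me3 replicate 1 or of replicate 2 it was −4.45 or 3.80, so its sign rested on single libraries.

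In regions of 2 to 4 kb, the centre lost a large share of the H3K4me1 that the edges kept. Centre cover was 69.7%, 35.8% and 56.3% in replicates 1, 2 and 3, while edge cover was 94.7%, 84.4% and 91.3%. Every library was lower at the centre, and no centre value reached the lowest edge value. The difference was −36.2 ± 11.8 points (SD, n = 3), and over the 6 pairs of lists it ran from −55.7 to −19.4. Regions over 4 kb gave −35.1 ± 5.59 points, from a centre of 59.5% ± 9.07 and an edge of 94.6% ± 3.60. The two-sided exact sign-flip permutation test over the 3 libraries gave p = 0.25 for these bins and for regions under 1 kb, the smallest p that 3 libraries allow, and p = 1 for 1 to 2 kb.

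**Figure D1:**
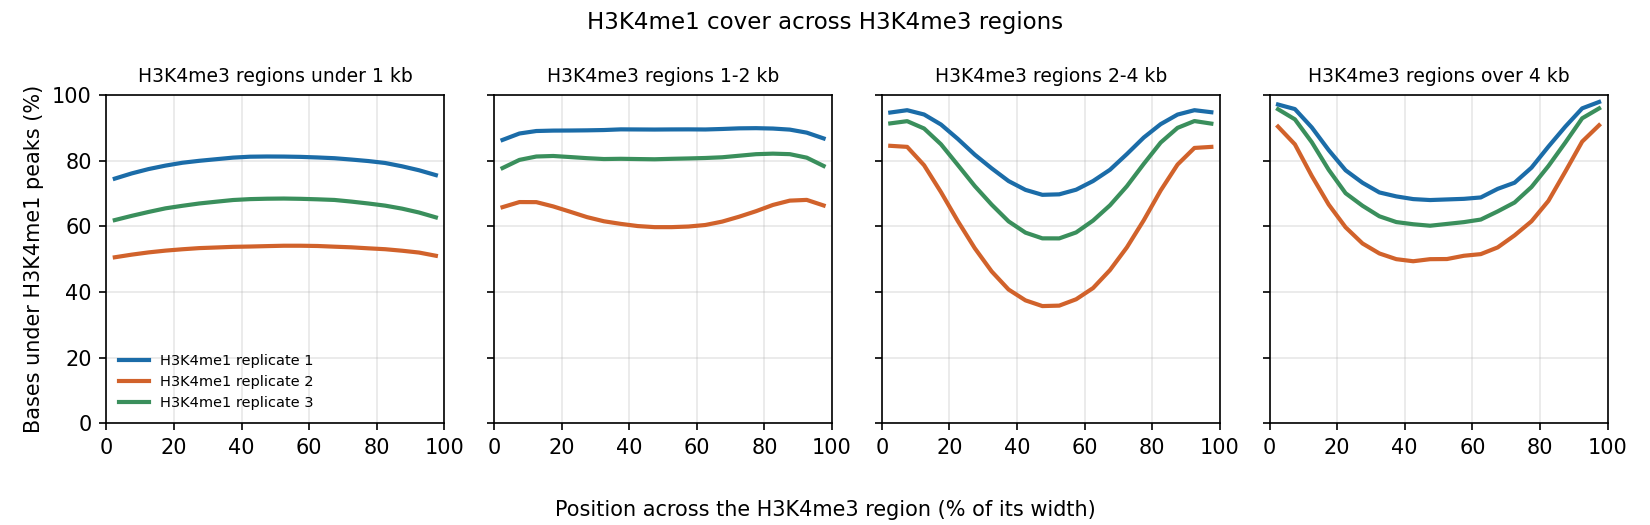
H3K4me1 cover (vertical axis, % of bases) across H3K4me3 regions scaled to their own width (horizontal axis, %), with 1 line for each H3K4me1 library and 1 panel for each width bin of H3K4me3. The lines rise slightly to the middle under 1 kb, differ between libraries at 1 to 2 kb and dip to 35.8% to 69.7% at the centre of regions of 2 to 4 kb, and replicate 2 is the lowest line in every panel.

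Averaged over regions, the trough was centred. Regions were read along the chromosome and not turned, so leans to either side would cancel in this average. Of 20 equal bins along a region of 2 to 4 kb, the lowest was bin 10 in 5 pairs of lists and bin 11 in the other, on either side of the midpoint. Cover in the first and last bin of those regions was alike, at 90.2% ± 5.17 and 90.1% ± 5.38. The descent began inside the region. In regions of 2 to 4 kb, H3K4me1 covered 90.4% ± 5.51 of the first 0.25 kb inside the edge, 86.2% ± 8.87 of the next 0.25 kb, 75.6% ± 13.4 from 0.5 to 0.75 kb and 65.2% ± 15.9 from 0.75 to 1 kb. In regions over 4 kb the same steps gave 94.8% ± 3.51, 92.3% ± 5.30, 84.6% ± 7.39 and 76.1% ± 8.22.

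Taken in steps of 0.5 kb, the change with width was graded, without a jump at a bin limit. Part of the change is fixed in advance, since no gap between H3K4me1 peaks was shorter than 901 bp. Narrow regions could thus hardly be troughed, and how large that part is was not tested. The centre-to-edge difference was 5.97 ± 2.21 points at 0.5 to 1 kb and 4.40 ± 3.10 at 1 to 1.5 kb. It was −5.04 ± 7.54 points at 1.5 to 2 kb, −24.5 ± 13.4 at 2 to 2.5 kb and −41.8 ± 12.1 at 2.5 to 3 kb. The mean was lowest at 3 to 3.5 kb, at −47.3 ± 10.3 points, where the libraries read −36.7, −57.2 and −47.8. Replicate 1 was lowest at 3.5 to 4 kb, at −38.3, and the steps from 3 to 4.5 kb differed by less than their SD. Wider regions were less troughed at their exact middle, with −32.2 ± 4.76 at 5 to 5.5 kb and −20.1 ± 3.00 at 7 to 7.5 kb, a step with 22 and 42 regions. Regions within 100 bp of a bin limit differed little from their neighbours across it. The values just below and just above were 5.58 and 5.32 points at 1 kb, −11.5 and −16.6 at 2 kb, and −43.8 and −46.2 at 4 kb.

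Within a width bin, the trough went with the strength of H3K4me3. The fold enrichment that the authors deposited for each H3K4me3 peak was used to split each list and width bin into 3 equal groups. In the most enriched regions of 2 to 4 kb, centre cover was 49.8%, 23.2% and 36.7% in replicates 1, 2 and 3, and in the least enriched it was 87.0%, 51.8% and 75.9%. The centre-to-edge difference was −59.1 ± 10.6 points in the most enriched and −8.81 ± 9.49 in the least enriched. The gap between those groups was −50.3 ± 3.88 points (SD, n = 3) and was negative in 3 of 3 libraries (exact sign-flip permutation p = 0.25). Over 4 kb the same gap was −51.8 ± 3.19 points, at 1 to 2 kb it was −12.4 ± 5.20, and under 1 kb it was positive, at 5.57 ± 1.89.

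Width did not separate the strength groups in the widest bin. The median width of the most and least enriched regions over 4 kb was 4719 bp and 5010.5 bp in H3K4me3 replicate 1 and 4897 bp and 4884 bp in replicate 2. At 2 to 4 kb the most enriched regions were wider, at 2729.5 bp against 2488 bp and 2817 bp against 2516.5 bp.

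**Figure D2:**
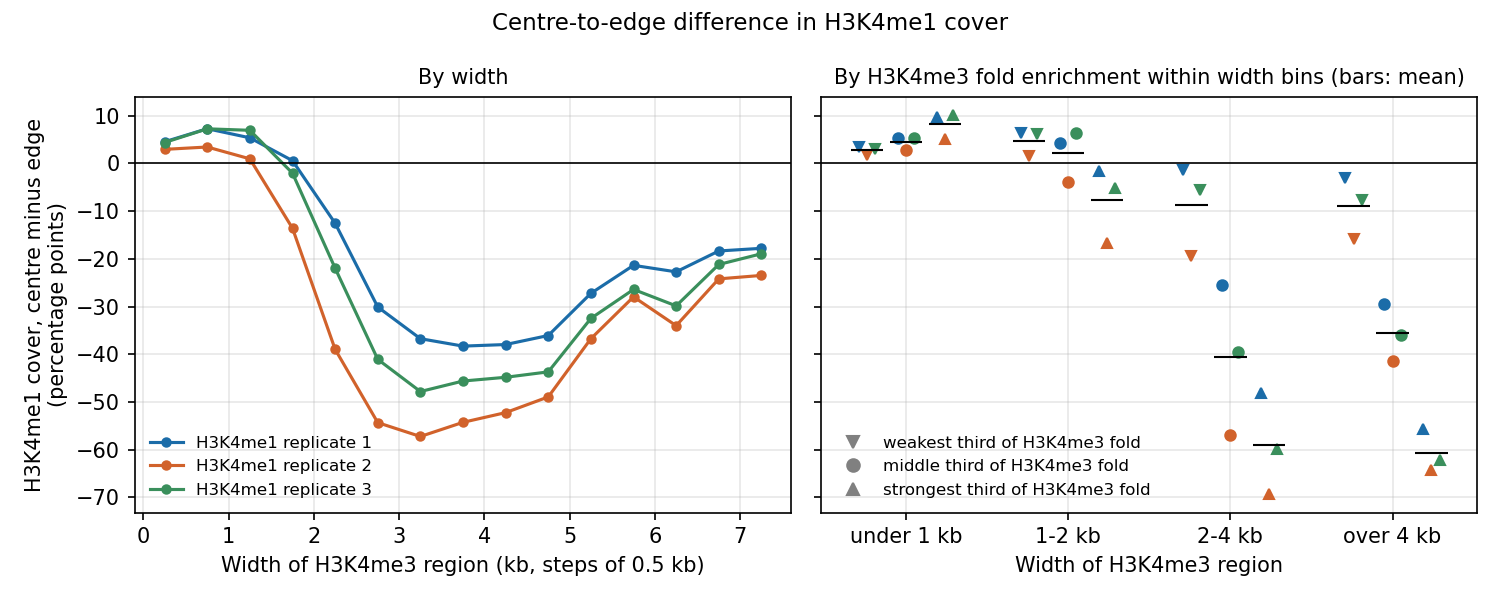
Centre-to-edge difference in H3K4me1 cover (vertical axis, percentage points, below 0 where the centre is barer), by width of the H3K4me3 region in steps of 0.5 kb (left) and by tertile of H3K4me3 fold enrichment within width bins (right), with 1 colour for each H3K4me1 library. The left lines cross 0 between 1 and 2 kb and are lowest at 3 to 4 kb, and on the right the most enriched regions over 2 kb lie between −69.2 and −48.1 points.

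At single regions the trough appeared as a bare stretch between covered edges. Regions were sorted by whether H3K4me1 peaks reached their first and last base. Those wholly covered by H3K4me1 made up 54.4% ± 11.5 under 1 kb, 60.7% ± 15.7 at 1 to 2 kb, 42.1% ± 17.7 at 2 to 4 kb and 21.5% ± 10.8 over 4 kb. Those with both edges covered and a bare stretch between them made up 0%, 4.18% ± 2.42, 39.9% ± 8.95 and 67.9% ± 4.81 of the same bins. In the widest bin this layout was the commonest in every library, at 62.5%, 71.8% and 69.4%. At 2 to 4 kb it was the commonest only in replicate 2, with 48.6% against 23.7% wholly covered, and replicate 1 had 30.7% against 59.1%. Regions with 1 edge covered made up 13.4% ± 6.51 at 2 to 4 kb and 8.73% ± 5.13 over 4 kb.

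The lists set a lower limit on what can be seen as bare. No 2 H3K4me1 peaks of a library lay closer than 913 bp, 973 bp or 901 bp (replicates 1, 2 and 3), so a shorter interruption could not appear, and a region under 1 kb could hardly hold one. Where bare stretches of up to 1500 bp between H3K4me1 peaks were closed, the centre-to-edge difference at 2 to 4 kb was −7.67 points and that over 4 kb was −26.9.

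**Figure D3:**
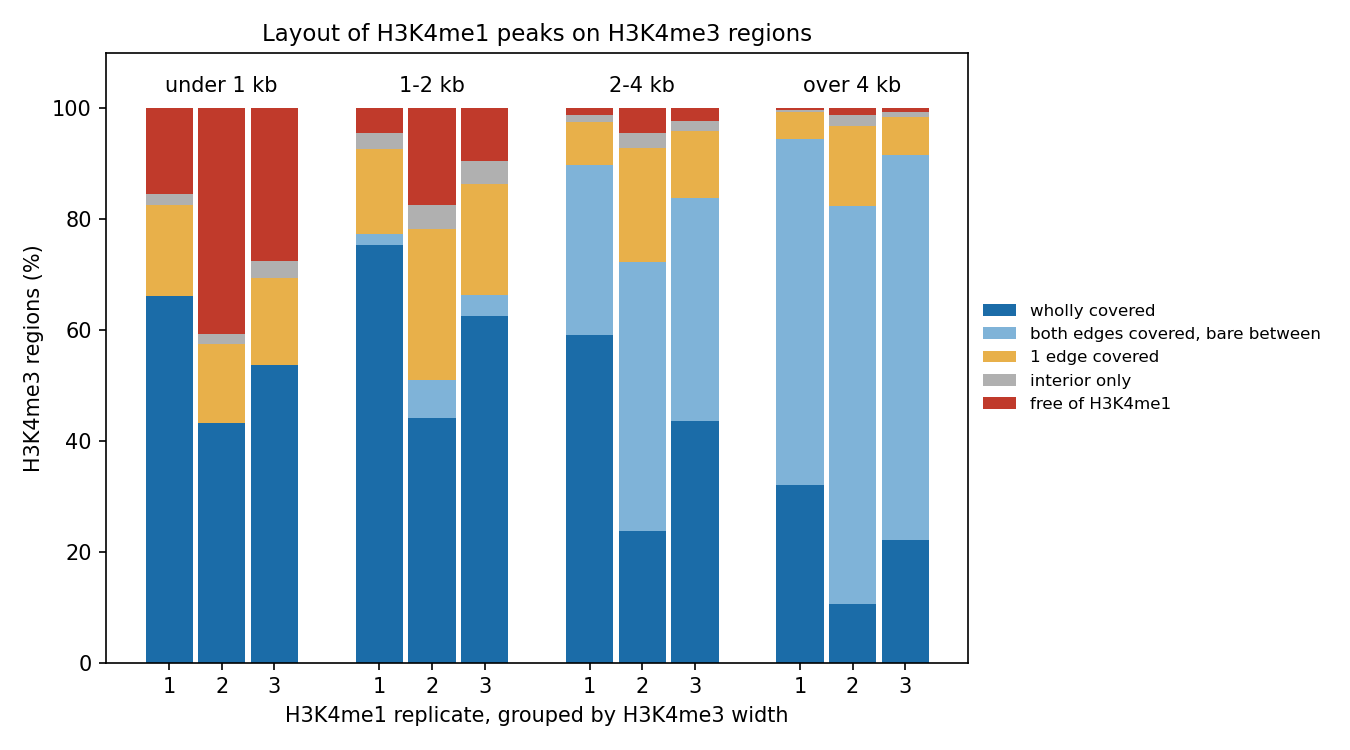
Share of H3K4me3 regions (vertical axis, %) in each layout of H3K4me1 peaks, stacked for each H3K4me1 library (horizontal axis) within each H3K4me3 width bin. The light blue share, with both edges covered and a bare stretch between, grows from 0% under 1 kb to between 62.5% and 71.8% over 4 kb, and the share free of H3K4me1 shrinks.

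A bare stretch bounded by H3K4me1 on both sides inside a region was found in 43.4% ± 11.4 of regions of 2 to 4 kb and 72.8% ± 8.27 of those over 4 kb. Its median length was 1033 ± 54.4 bp at 1 to 2 kb, 1221 ± 108 bp at 2 to 4 kb and 1642 ± 207 bp over 4 kb, so it was longer in wider regions. It took a falling share of the region, 58.9% ± 3.03, 44.4% ± 4.54 and 31.8% ± 3.70 in those bins. Both trends are partly fixed in advance. The stretch can be neither shorter than the shortest gap between H3K4me1 peaks nor longer than its region. At 1 to 2 kb its mean lower and upper quartiles were 975 and 1136 bp, near that shortest gap. The median midpoint of the stretch lay at 49.99% ± 0.120 of the region's width at 2 to 4 kb, with quartiles at 41.8% and 57.8%. Over 4 kb the quartiles were 34.6% and 65.9%, so in wide regions the stretch often lay off the middle. A second bare stretch was rare, in 2.27% ± 1.20 of regions over 4 kb.

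The bare stretches held the open chromatin of proerythroblasts. At 2 to 4 kb, ATAC peaks covered 65.8% and 70.7% of the bare stretches (ATAC replicates 1 and 2) and 6.22% and 9.28% of the rest of the same regions. The ranges over the 6 pairs of lists did not overlap, at 61.2% to 69.2% inside and 4.09% to 7.81% outside for ATAC replicate 1. Of the ATAC summits in those regions, the points of greatest signal, 92.5% and 87.5% lay in the bare stretch, which took 44.2% of the length. Over 4 kb the summit shares were 72.5% and 65.5% on 31.6% of the length. Wholly covered regions were not closed: an ATAC summit was present in 94.4% and 97.9% of those of 2 to 4 kb.

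H3K27ac, the acetyl mark of active promoters and enhancers, was also denser in the bare stretches. At 2 to 4 kb its peaks covered 93.4% and 90.2% of them (H3K27ac replicates 1 and 2) against 71.8% and 64.6% of the rest of the region. H3K4me2 peaks covered nearly all bases of both parts, with 99.95% and 99.88% inside and 99.87% outside in both libraries. At this ceiling the measure could not separate the parts. H3K4me2, H3K27ac and ATAC took no part in how the stretches were found. In regions of that width wholly under H3K4me1, ATAC peaks covered 28.4% and 33.9% of bases and H3K27ac 76.6% and 71.0%, and the part that position within a region plays in these values was not tested.

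Beyond the edges of H3K4me3 regions, H3K4me1 did not stop at the border but thinned with distance. Neighbouring H3K4me3 regions were not left out of the windows outside, so the farther windows can include H3K4me1 that lies on them. Beside regions of 2 to 4 kb it covered 83.4% ± 6.67 of the first 0.25 kb, 70.7% ± 7.82 from 0.25 to 0.5 kb, 53.1% ± 7.89 from 0.5 to 1 kb and 34.5% ± 6.11 from 1 to 2 kb. It was at 23.9% ± 4.10 from 2 to 5 kb and 11.5% ± 2.19 from 50 to 100 kb. Beside regions over 4 kb the reach was longer, with 58.4% ± 6.81 from 1 to 2 kb, 45.4% ± 5.56 from 2 to 5 kb and 26.9% ± 3.82 from 10 to 20 kb. Regions under 1 kb had 57.0% ± 10.3 in the first 0.25 kb and 28.1% ± 3.74 from 1 to 2 kb. Far away, at 50 to 100 kb, the 4 bins lay between 10.8% and 13.3%.

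The flanks were often unequal. A side was counted as flanked where at least 50% of the 1 kb outside that edge was under H3K4me1. Over all widths, 37.7% ± 7.43 of regions were flanked on both sides, 31.3% ± 0.434 on 1 side and 31.0% ± 7.76 on neither. The share flanked on 1 side was 31.8%, 31.1% and 30.9% in replicates 1, 2 and 3, and the share flanked on both sides was 45.2%, 30.4% and 37.6%. The near equality for 1 side did not hold within width bins, where it was 22.7%, 16.7% and 17.7% under 1 kb and 21.6%, 35.3% and 26.0% over 4 kb. These shares depend on the definition. With any base of the flank counted, 70.3% were flanked on both sides, and with 90% required, 24.4%.

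The share of regions with no flank was lower in each wider bin, while flanks on both sides and on 1 side did not follow width throughout. Both sides were flanked in 33.8% ± 4.90 of regions under 1 kb, 29.3% ± 7.01 at 1 to 2 kb, 43.9% ± 9.48 at 2 to 4 kb and 66.3% ± 10.4 over 4 kb. Flanks on 1 side were found in 19.01% ± 3.23, 34.2% ± 2.45, 39.8% ± 2.79 and 27.6% ± 7.00 of the same bins, with the highest mean at 2 to 4 kb. Neither side was flanked in 47.2% ± 8.02, 36.4% ± 9.47, 16.3% ± 6.77 and 6.07% ± 3.38 of the bins from narrow to wide. From under 1 kb to 1 to 2 kb, flanks on both sides were less frequent in 3 of 3 libraries. Where 1 side was flanked, it was the left in 48.6% of regions, with 48.9%, 48.8% and 48.1% in the 3 libraries, so neither direction along the chromosome prevailed by more than a few points.

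A region was counted as bracketed where both sides were flanked and its middle base was bare. Bracketed regions made up 0.0379% ± 0.00511 under 1 kb, 1.80% ± 0.899 at 1 to 2 kb, 18.6% ± 1.48 at 2 to 4 kb and 26.6% ± 1.44 over 4 kb. The H3K4me3 lists differed by more than these SDs. With only the regions of H3K4me3 replicate 1 or of replicate 2, the share was 24.5% or 12.7% at 2 to 4 kb. Over 4 kb it was 31.5% or 21.7%. Among the most enriched regions over 4 kb the share was 48.2%, 41.5% and 50.9% in replicates 1, 2 and 3, against 4.96%, 10.9% and 7.29% among the least enriched. With closed bare stretches of up to 1500 bp, the share at 2 to 4 kb was 5.43%.

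To see whether single regions kept their class, the 13600 merged stretches holding a peak of both H3K4me3 libraries, called shared regions below, were read in each H3K4me1 library. The class was the same in all 3 libraries for 7731 of them, which is 56.8%. Of these, 2828 were flanked on both sides, 3000 on neither and 1903 on 1 and the same side (926 left and 977 right). Another 311 were flanked on opposite sides in different libraries. In the shared regions of any class, 1734 were bracketed in at least 1 library and 398 of those, 23.0%, in all 3.

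Open chromatin sat off-centre in regions with a single flank. Distances were measured from the flanked edge as a percentage of the region's width. In regions of 2 to 4 kb flanked on 1 side, the median ATAC summit lay at 62.0% and 61.0% (ATAC replicates 1 and 2). Of the summits, 70.2% and 66.7% lay past the middle, towards the side not counted as flanked. At 1 to 2 kb the medians were 60.9% and 60.2%. Over 4 kb they were 61.9% and 58.9%. Under 1 kb they were 45.0% and 48.1%, with ranges over the pairs of lists of 42.3% to 47.0% and 46.2% to 51.4%. Only the range of ATAC replicate 1 lay wholly on the other side of the middle.

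The shift was there when the side had to be the same in all 3 H3K4me1 libraries. Among the 1013 such shared regions of 2 to 4 kb, 907 of 1174 summits lay past the middle in ATAC replicate 1, which is 77.3% (exact 95% binomial interval 74.8 to 79.6). ATAC replicate 2 gave 942 of 1305, or 72.2% (69.7 to 74.6). At 1 to 2 kb the shares were 71.3% and 70.9%, and over 4 kb they were 72.3% and 65.1%. Under 1 kb they were 28.9% (16.4 to 44.3) and 41.2% (29.4 to 53.8), from 45 and 68 summits. The interval of ATAC replicate 2 thus included an even split. Summits of 1 region and neighbouring regions are not independent, so the intervals cover counting error only.

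H3K4me1 inside those regions was lopsided as well. In regions of 2 to 4 kb flanked on 1 side, cover was 99.0% ± 0.726 in the bin at the flanked edge and 85.0% ± 7.03 at the other, and the lowest mean was 51.3% ± 19.04, in bin 12 of 20 from the flanked edge. The 1 kb outside carried more of the other marks on the flanked side. H3K4me2 covered 85.3% of the flanked 1 kb and 40.8% of the other in H3K4me2 replicate 1, and 87.0% and 42.7% in replicate 2. H3K27ac covered 24.1% and 7.48% in its replicate 1, and 17.0% and 4.88% in replicate 2. ATAC peaks were scarce on both, at 0.187% on the flanked side and 0.155% on the other in ATAC replicate 1, and 0.644% and 0.332% in replicate 2.

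**Figure D4:**
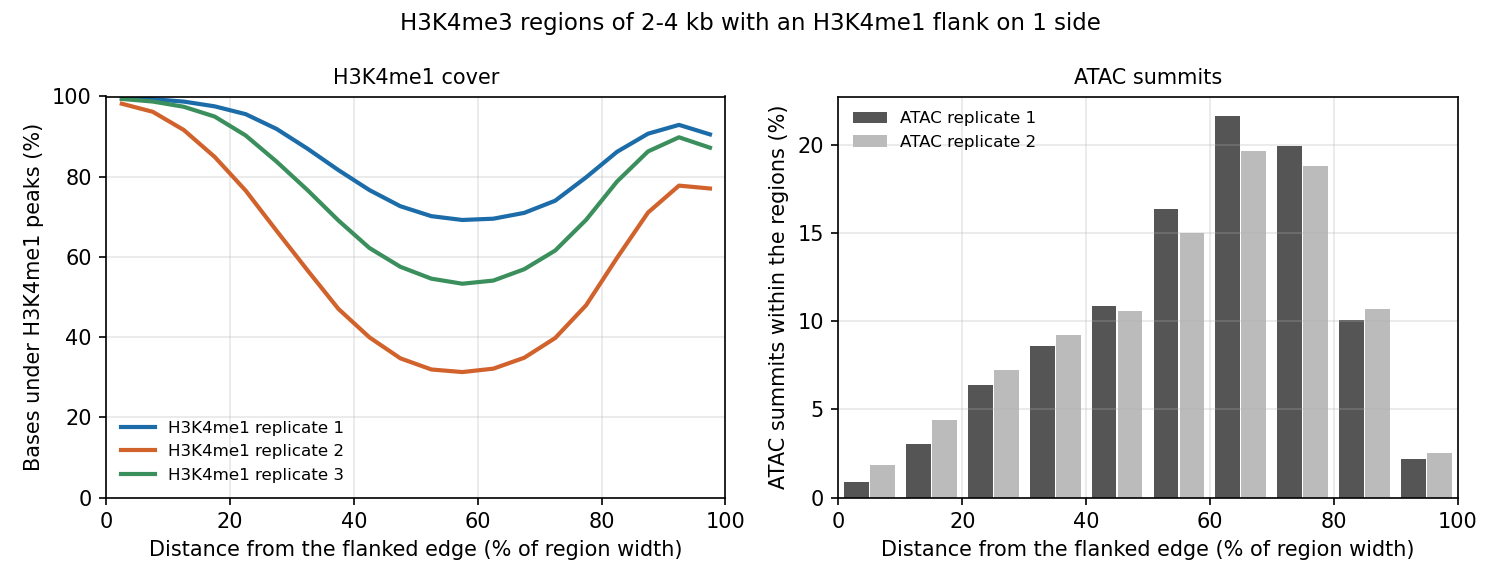
H3K4me3 regions of 2 to 4 kb with an H3K4me1 flank on 1 side, turned so that the flanked edge is at 0% of the width (horizontal axes): H3K4me1 cover in each of the 3 libraries (left, %) and the share of proerythroblast ATAC summits in each 10% of the width (right, %, 1 bar for each ATAC library). Cover is lowest past the middle, and the largest share of summits, 21.7% and 19.6%, lies at 60% to 70% of the width.

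Flank class also went with acetylation and openness at matched width. Among shared regions of 1 to 2 kb in the same class in all 3 libraries, those flanked on both sides met an H3K27ac peak in 95.5% ± 0.644 of cases (SD, n = 2 H3K27ac libraries), those flanked on 1 side in 74.8% ± 3.39 and those flanked on neither in 28.6% ± 4.20. For ATAC peaks the same order gave 88.3% ± 5.89, 92.7% ± 5.34 and 64.0% ± 5.50. The single-flank regions had the highest median H3K4me3 fold of these groups, 8.87 against 3.80 for both sides and 4.96 for neither. Under 1 kb, H3K27ac was met by 91.1% ± 2.44 of regions flanked on both sides and by 7.29% ± 0.938 of those flanked on neither.

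Regions wholly without H3K4me1 made up a smaller share of each wider bin. Those sharing no base with an H3K4me1 peak made up 15.4%, 40.8% and 27.6% of regions under 1 kb in replicates 1, 2 and 3, with a mean of 27.9% ± 12.7. The share was 10.5% ± 6.56 at 1 to 2 kb, 2.60% ± 1.61 at 2 to 4 kb and 0.693% ± 0.488 over 4 kb. This fall is partly built into the definition, since 1 covered base is enough to leave the class and long regions have more bases. How large that part is was not tested. Counting regions with under 10% of their bases covered instead gave 28.3%, 11.2%, 2.97% and 0.949% from narrow to wide. Over all widths the share without any covered base was 6.23%, 18.8% and 11.8%, in the reverse order of the libraries' H3K4me1 cover. With equal numbers of H3K4me1 peaks from each library the mean was 13.5% against 12.3% ± 6.32 as deposited, and with a −log10 q of at least 5 it was 55.3%.

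Of the 13600 shared regions, 564 were free of H3K4me1 in all 3 libraries, which is 4.15% (exact 95% binomial interval 3.82 to 4.50, for counting error over regions only). Single libraries left 600, 2181 and 1266 shared regions free, so nearly every region free in replicate 1 was free in the others too. By width, 247 of 1955 under 1 kb were free in all 3 libraries, 219 of 4719 at 1 to 2 kb, 93 of 5408 at 2 to 4 kb and 5 of 1518 over 4 kb. At the other end, 11341 shared regions, 83.4%, touched H3K4me1 in every library.

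The regions free of H3K4me1 were weakly enriched, rarely acetylated and mostly closed in proerythroblasts. Their median H3K4me3 fold was 3.62 against 9.17 for regions touched in all 3 libraries. H3K27ac peaks met 6.83% ± 0.878 of them (SD, n = 2) against 82.6% ± 2.20, and ATAC peaks met 15.7% ± 0.125 against 92.0% ± 4.09. H3K4me2 was nearly as common on both, at 92.4% ± 5.77 and 99.99%. Regions free in only 1 or 2 libraries fell between for openness, with 47.9% ± 8.34 meeting an ATAC peak, but 9.38% ± 2.84 met H3K27ac.

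The gap was present at matched width and fold. Of shared regions of 1 to 2 kb in the lowest tertile of H3K4me3 fold, 187 were free in all 3 libraries and 982 were touched in all 3, with median folds of 3.54 and 3.61. H3K27ac met 3.74% ± 1.51 of the free ones and 68.3% ± 1.51 of the touched ones, and ATAC met 14.2% ± 0.378 and 79.3% ± 10.2. Under 1 kb in the lowest tertile, the median folds were 3.08 in both, and H3K27ac met 0.926% of 108 free regions in each library and 59.6% ± 2.13 of 332 touched ones. Under 1 kb in the highest tertile, H3K27ac met 26.1% of 69 free regions in each library, more than in any other free group of 20 or more regions. Of all 564 free regions, 392 were in the lowest tertile of fold for their width and 73 in the highest.

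**Figure D5:**
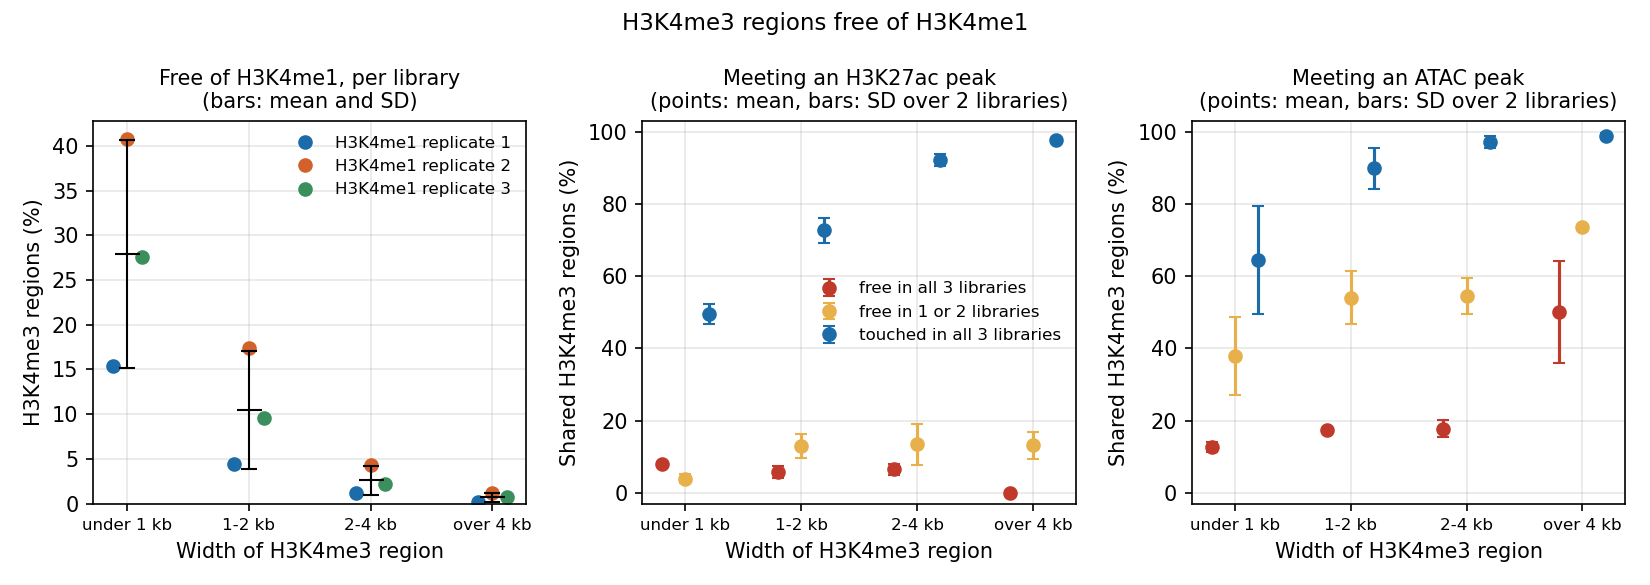
Share of H3K4me3 regions free of H3K4me1 in each library by width bin (left, %), and share of shared H3K4me3 regions that meet an H3K27ac peak (middle, %) or a proerythroblast ATAC peak (right, %) by the number of H3K4me1 libraries in which the region is free. Regions free in all 3 libraries stay at or below 17.7% in both measures up to 4 kb, and there are 5 such regions over 4 kb.

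The distance from free regions to H3K4me1 has no comparison here. Regions touched in all 3 libraries lie at 0 bp by definition, and other untouched positions were not measured. Leaving out 4 regions on the Y, which had no H3K4me1 peak, the nearest peak of any library was at a median of 24659.5 bp. The quartiles were 7101.5 and 85176.8 bp. Of those 560 regions, 388 (69.3%) were over 10 kb from any H3K4me1 peak and 49 were within 1 kb. The nearest other shared H3K4me3 region was at a median of 83135.5 bp, against 20767 bp for regions touched in all 3 libraries.

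H3K4me2 and H3K27ac peaks without H3K4me3 did not show the trough. H3K4me2 peaks that touched no H3K4me3 peak served as the first comparison, with 1716 and 2492 of them at 2 to 4 kb. Their H3K4me1 cover was higher at the centre than at the edge in every library, by 4.92, 12.7 and 7.55 points. H3K27ac peaks without H3K4me3 rose by 14.4, 20.1 and 17.6 points at the same width. The difference between H3K4me3 regions and these was −44.6 ± 15.8 points for H3K4me2 and −53.6 ± 14.6 for H3K27ac, negative in 3 of 3 libraries for both (exact sign-flip permutation p = 0.25 each). Over 4 kb the differences were −40.0 ± 9.17 and −58.4 ± 9.51 points. Under 1 kb they were small and of unlike sign, at −1.75 ± 1.55 and 2.70 ± 1.87. The peaks compared were matched for width bin only, and not for enrichment or openness. The least enriched H3K4me3 regions of 2 to 4 kb had a centre-to-edge difference of only −8.81 ± 9.49 points. The part of enrichment in these differences was not tested.

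The widest shared H3K4me3 regions kept H3K4me1 over most of their length. They are given by mm9 position, counted from 1, and their genes are not named because the gene tables at hand are on another build. The widest, at chr8:24143686-24170408, spanned 26.7 kb and had H3K4me1 on 92.2%, 91.6% and 91.9% of its bases in replicates 1, 2 and 3. Its only inner bare stretch was 2088, 2241 and 2177 bp long, centred at 9.15%, 9.07% and 9.20% of its width. The next, at chr7:97277116-97297052 (19.9 kb), had 84.0% ± 1.05 of its bases covered and a bare stretch of 3192 ± 210 bp centred near 13% of its width. The regions at chr8:108341450-108358026 (16.6 kb), chr1:59017643-59033119 (15.5 kb) and chr5:97425475-97440406 (14.9 kb) had 89.9% ± 0.942, 87.0% ± 1.91 and 87.9% ± 2.27 of bases covered. Each of these 5 had exactly 1 inner bare stretch in every H3K4me1 library, and in 4 of them it lay within 20% of the width from an end, outside the centre as defined here.

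Of 382 shared regions bracketed in every H3K4me1 library and in both H3K4me3 lists, the widest bare middle was at chrX:39501406-39507654, a region of 6.25 kb with an H3K4me3 fold of 13.4 and 19.4 in the 2 libraries. H3K4me1 was missing from 4311, 4413 and 4303 bp of it in replicates 1, 2 and 3, and H3K27ac and H3K4me2 covered all of it. The region at chr1:135025865-135033096 (7.23 kb) had bare stretches of 4069, 4087 and 3989 bp, centred at 50.2%, 50.1% and 50.4% of its width. The region at chr19:5796153-5804427 (8.28 kb) was less repeatable, with 2587, 4699 and 3802 bp. All 3 had H3K4me3 folds above the median of touched regions, at 16.4 ± 4.22, 17.3 ± 2.11 and 18.9 ± 3.70 (SD, n = 2).

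The widest regions flanked on 1 and the same side were at chr13:75844129-75858489 (14.4 kb, flanked on the right), chr13:22124675-22137662 (13.0 kb, right) and chr2:44962069-44973315 (11.2 kb, left). In the first, H3K4me1 covered 29.8%, 19% and 43.8% of the left 1 kb in replicates 1, 2 and 3 and 100% of the right 1 kb in each. In the region on chromosome 2 the left flank was fully covered and the right one at 9.4%, 5.0% and 0.0%. H3K27ac covered 43.8% and 55.2% of that region, while it covered 93.4% and 86.2% of the first.

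The widest regions without any H3K4me1 were at chr2:115887857-115893549 (5.69 kb), chr8:118226921-118232303 (5.38 kb) and chr7:35902946-35907203 (4.26 kb). Their H3K4me3 folds were low, at 3.42 ± 0.537, 4.07 ± 0.489 and 4.33 ± 0.702, and none met H3K27ac in either library. The first lay 148798, 451450 and 451427 bp from the nearest H3K4me1 peak of replicates 1, 2 and 3, and the last only 5203, 5359 and 5253 bp. The most enriched free regions were short. They were at chr4:132652565-132653024 (0.46 kb, fold 13.6 ± 0.422), chr8:93410878-93411341 (0.464 kb, 13.2 ± 1.72) and chr8:19892359-19893249 (0.891 kb, 12.5 ± 0.306). The first 2 met neither H3K27ac nor ATAC peaks, while the last had an ATAC summit in both libraries and H3K27ac on 45.9% and 35.8% of its bases. No filter for repeats was applied, and whether these short regions lie in repeated sequence was not tested.

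Seen from the other mark, 31.8%, 39.1% and 37.3% of H3K4me1 peaks in replicates 1, 2 and 3 touched an H3K4me3 peak of either library. Median width was 2541 ± 516 bp among those that did and 990.3 ± 8.96 bp among the rest (SD, n = 3). Of H3K4me1 peaks over 4 kb, 71.9% ± 1.41 touched H3K4me3, and of those under 1 kb, 16.6% ± 6.84. The touching peaks held 58.7% ± 1.53 of all bases under H3K4me1, but only 23.3% ± 1.32 of H3K4me1 bases lay under H3K4me3 itself. The number of touching peaks was close to constant, at 16651, 16538 and 16607, although the lists ran from 42323 to 52387 peaks.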

How the data were processed

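Peak positions were analysed for 3 H3K4me1 and 2 H3K4me3 ChIP-seq libraries, with 2 H3K4me2, 2 H3K27ac and 2 ATAC-seq lists for comparison. The list of the input library was left out. Trimmomatic 0.32, Bowtie 1.0.1, SAMtools, MACS2 and mm9 are named in the submitters' processing notes. Which control and settings MACS2 ran with was not given in the sources used here. From each library the authors deposited 1 peak list, in broad format for ChIP and narrow format for ATAC, so peaks were not called on pooled reads. Each deposited peak carries a score, a fold enrichment (the ratio to local background that MACS2 reports), and its p-value and q-value on the −log10 scale. The authors' fold served only to rank H3K4me3 regions within a list, and the −log10 q only as a stricter threshold. The lists hold no read counts, so depth is unknown and no interval for single values needs it.

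Only chromosomes 1 to 19, X and Y entered. This set aside 5 H3K4me3 peaks and 2 peaks of H3K27ac replicate 2 on the mitochondrial chromosome. Overlap means 1 shared bp or more. Regions were cut into 20 bins. Intervals are exact Clopper-Pearson 95% intervals. Tests were a two-sided exact permutation test and a two-sided exact sign-flip over libraries, and no test used regions as replicates. The permutation test compared group means of per-library values, which were median widths and shares of peaks over 4 kb. The intervals are over regions or summits, which are not independent, so they hold counting error alone. Regions named in the text were the 5 widest shared H3K4me3 regions, the 3 bracketed in all libraries with the widest bare stretch, the 3 widest flanked on 1 and the same side, and the 3 widest and 3 most enriched free ones. The members, bins and lists were chosen with earlier results of these data known. The classifying steps were checked on 2000 simulated regions and recovered 100% of their layouts. These held only clear-cut layouts, with flanks fully covered or empty and any bare stretch centred. The check therefore does not cover borderline flanks or bare stretches off the middle. Python 3.11.15, numpy 2.4.6, pandas 2.3.3, scipy 1.17.1 and matplotlib 3.10.9 were used.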

Additional observations from a re-analysis of the deposited data

How the results depend on the processing

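Of 128 alternative values for the main results, 95 stayed within 1 SD over libraries of the value reported, 32 moved by more and 1, the difference in median width, reversed. The 95 include values that could not move, with H3K4me1 gaps of up to 500 bp closed. They also include values that hardly could, with H3K4me3 peaks within 1 kb joined. The shortest gaps between H3K4me3 peaks were 942 and 991 bp (replicates 1 and 2). The centre-to-edge difference at 1 to 2 kb lay near 0 and took either sign across alternatives. The negative centre-to-edge difference at 2 to 4 kb and over 4 kb kept its sign under every alternative run, leaving out each library included. A −log10 q of at least 5 had the widest effect: the width difference turned to 1482 bp, the centre-to-edge differences were 0.909 (under 1 kb), −16.3 (2 to 4 kb) and −18.1 points (over 4 kb), 19.5% of regions were flanked on both sides and 19.5% on 1, 5.94% of those of 2 to 4 kb were bracketed, and 55.3% were free. Read at shared regions, the centre-to-edge differences were 10.4 (under 1 kb) and 5.23 points (1 to 2 kb), flanks on 1 side were 33.9% and bracketing at 2 to 4 kb was 11.9%. Flanks of 500 bp gave 52.5% on both sides, 26.3% on 1 and 28.0% bracketed at 2 to 4 kb, and flanks of 2 kb gave 23.0%, 30.4% and 8.24%. Counting any covered base of the flank gave 70.3%, 15.9% and 36.9%, and asking for 90% of it gave 24.4%, 30.7% and 9.32%. Regions with no other within 5 kb had 32.2% flanked on 1 side. Closing bare stretches of up to 1500 bp, an alternative chosen after seeing the data, gave −7.67 points at 2 to 4 kb, −26.9 over 4 kb, 30.7% flanked on 1 side and 5.43% bracketed. Closing those of up to 500 bp altered nothing, since no gap is that short.

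With each replicate left out in turn, the width difference ran from −326.3 to −249.3 bp and the centre-to-edge difference from 4.57 to 6.16 (under 1 kb), −4.45 to 3.80 (1 to 2 kb), −42.8 to −29.6 (2 to 4 kb) and −38.5 to −31.7 points (over 4 kb). Flanks on both sides ran from 34.0% to 41.4%, on 1 side from 30.1% to 32.5%, bracketing at 2 to 4 kb from 12.7% to 24.5% and free regions from 8.999% to 15.3%. The free share at 2 to 4 kb was 1.72% without H3K4me1 replicate 2 and 1.72% without H3K4me3 replicate 2, and that over 4 kb was 0.453% without H3K4me1 replicate 2, against 2.60% and 0.693%. No paired analysis was possible because the numbers in the titles go with different date-like tags in the H3K4me1 and H3K4me3 libraries and no signal was tested between them. Unknown depth limits the free class, which was larger at a stricter q, and the bracketed class, which was smaller. The part of depth was not tested.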

Other observations

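The X chromosome had more H3K4me3 regions free of H3K4me1 than the autosomes. Of its 415 shared regions, 41 were free in all 3 libraries, which is 9.88% (exact 95% binomial interval 7.18 to 13.2), against 519 of 13181, or 3.94% (3.61 to 4.28), on chromosomes 1 to 19. Each library showed the same order, with 10.1%, 28.4% and 20.2% on the X in replicates 1, 2 and 3 against 4.20%, 15.6% and 8.94%. By width, the shares free in all 3 libraries were 32.8% (21.6 to 45.7) of 64 under 1 kb on the X against 12.0% (10.5 to 13.5) of 1891, 10.8% of 158 against 4.39% of 4559 at 1 to 2 kb, and 1.94% of 155 against 1.68% of 5251 at 2 to 4 kb. Single libraries at 2 to 4 kb gave 1.94%, 8.39% and 3.87% on the X against 1.77%, 5.58% and 3.16%, and no test set the bins apart. The intervals cover counting error over regions only. Median H3K4me3 fold was 7.86 on the X and 7.94 on the autosomes. The X and the autosomes were compared after the values were seen, and no label used here states the sex of the embryos.

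The mean centre-to-edge difference in wide regions was also more negative on the X. At shared regions of 2 to 4 kb the centre-to-edge difference was −43.1 ± 3.30 points on the X and −28.0 ± 11.4 on the autosomes (SD, n = 3), and over 4 kb, from 38 regions on the X, it was −50.1 ± 1.24 and −31.0 ± 5.25. The difference between the chromosomes was not tested. Among the autosomes, the free share ran from 1.58% of 1137 shared regions on chromosome 11 to 5.63% of 426 on chromosome 16. All 4 shared regions on the Y were free, which was fixed in advance, since no H3K4me1 library had a peak on the Y.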
